A study of Mus musculus with 7 samples.

Results

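Immature neutrophils were described in mouse whole bone marrow by droplet single-cell RNA sequencing. They carried abundant secondary granule transcripts and no detected transcript of the proliferation genes Mki67 and Top2a. Other genes of the cell cycle were not part of the rule. A barcode was counted as such a cell when Camp, Ltf and Ngp together made up 2% or more of its UMIs (unique molecular identifiers, each standing for 1 captured RNA molecule), all 3 genes were detected, and no UMI of Mki67 or Top2a, Csf1r or Cd79a was present. Of 54669 barcodes kept over 7 libraries, 8414 met the rule, which is 15.4%. Of the kept barcodes, 17576 reached the 2% level, 17331 of them had all 3 genes detected, 8995 of those lacked Mki67 and Top2a, 8644 also lacked Csf1r, and 8414 also lacked Cd79a. Because measured values chose the cells, the genes of the rule are given below as a description, with no test.

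Marrow came from spine, hips, femur and tibia after red cell lysis, and oligonucleotide-tagged antibodies (hashtags) marked 20 samples that were run in 4 pools of 4 to 6 samples. The hashtag names gave the groups WTY (3 samples), WTO (4), HRY (3) and HRO (6), and 2 further samples, HRO.5 and HRO.6, are described in the series text as chronic and TET2-mutated and formed a group of their own, called chronic here. The labels spell out neither these prefixes nor an age, an allele, a treatment or a promoter for the other groups, and HR.7 and HR.AE belonged to no group. Nothing in the labels says that hashtag samples were separate animals, so each p-value measures the spread between hashtag samples.

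Neutrophils mature in bone marrow in steps that can be followed by the granule proteins they make. Dividing promyelocytes fill primary granules with myeloperoxidase and elastase, myelocytes and metamyelocytes then fill secondary granules with lactoferrin (Ltf), the cathelicidin peptide (Camp), neutrophilic granule protein (Ngp) and lipocalin 2 (Lcn2), and later cells make tertiary granule proteases such as Mmp8 and Mmp9. Production of secondary granule transcripts depends on the transcription factor Cebpe and stops before the mature cell, marked by Cxcr2 and Il1b, leaves for the blood.

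The hashtag samples in groups held 83 (HRY.5) to 742 (WTO.4) of these cells, with 215453 to 3427426 UMIs summed per sample. Median UMIs per cell ran from 1464.5 to 5905.5 over the libraries. Of the 8414 cells, 6962 were assigned to 1 hashtag, 1179 carried more than 1 and 273 carried none, and 6904 fell in the 18 grouped samples. Libraries WBM_3a and WBM_3b shared 2078 barcodes, whose lower-UMI copies had been removed, and 3 of the cells had such a copy. Samples HRO.7 and HRO.8 were close to each other (chi-square of 1.25 per degree of freedom over genes, against 9.78 and 8.88 for each with HRO.9 of the same pool). Their counts differed beyond counting noise, and both were kept as samples. That measure allows for no spread between cells, so it cannot tell whether they came from separate animals, and the labels do not say. With the pair summed as 1 sample 110 genes passed in HRO over WTO. Ddx3y, a Y-linked gene, was above 10 CPM (a gene's UMIs scaled to a common total per sample) in 3 of 4 WTO samples. It was also above 10 CPM in each HRY sample, but in only 1 of 6 HRO samples, HRO.9. RNA of other cell types moved with the pool. The summed level of 7 erythroid genes lay between 4096 and 10590 CPM in the 5 samples of WBM_1 and at most 879 CPM elsewhere, and that of 7 B cell genes, Cd79b and Ighm among them, lay between 1166 and 1696 CPM in WBM_1 and at most 351.5 CPM elsewhere.

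The label was checked against Lcn2, Cd177 and Ifitm6, markers that the rule did not use directly. Lcn2, an iron-siderophore binding protein of secondary granules, had a UMI in 99.8% to 100% of the cells in each pool. Cd177, a neutrophil surface protein, was detected in 87.5% to 98.3%, and Ifitm6, an interferon-induced transmembrane family member, in 97.5% to 99.6%. In barcodes with Cd79a, a B cell gene, the same genes were detected in 15.5% to 50.7%, 4.97% to 9.60% and 10.5% to 28.0%. Median depth in the 4 pools was 2460, 4669, 2138 and 5876 UMIs in the neutrophils and 980, 9381, 1662 and 2708 UMIs in the Cd79a barcodes. Detection of all 3 markers was far above that in the Cd79a barcodes also where these were deeper. The 2% limit parted the 2 sets as well, so the contrast was partly fixed by the rule.

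The 6 marker genes lie at separate loci of GRCm38 except for a group on chromosome 9. Camp lies at chr9:109847379-109849617 (minus strand), Ngp at chr9:110419747-110423012 (plus strand) and Ltf at chr9:111019271-111042767 (plus strand). Lcn2 lies at chr2:32384633-32388252, Cd177 at chr7:24743983-24760311 and Ifitm6 at chr7:141015699-141017924, all 3 on the minus strand. The promoter windows of Ltf and Cd177 are shown because the level of Ltf defines these cells and Cd177 was higher here than in the neighbouring stages in each grouped sample, as given below. Each window is the 250 bases before the RefSeq start in GRCm38.p6, written 5′ to 3′ on the strand of the gene. Ltf covers chr9:111019042-111019291 and Cd177 covers chr7:24760312-24760561. Capitals mark matches to a C/EBP-type motif, spelled TTNCNNAA or, on the other strand, TTNNGNAA.
Ltf: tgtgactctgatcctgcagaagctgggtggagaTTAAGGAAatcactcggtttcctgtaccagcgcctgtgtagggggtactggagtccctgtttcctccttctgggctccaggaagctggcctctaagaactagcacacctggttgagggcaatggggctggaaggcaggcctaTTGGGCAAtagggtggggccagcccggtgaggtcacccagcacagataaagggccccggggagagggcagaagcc
Cd177: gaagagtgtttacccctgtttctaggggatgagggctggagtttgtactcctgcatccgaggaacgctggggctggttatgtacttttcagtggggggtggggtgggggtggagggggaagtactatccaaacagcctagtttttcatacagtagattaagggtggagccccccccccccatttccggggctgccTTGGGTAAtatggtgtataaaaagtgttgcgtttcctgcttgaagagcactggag
The matches began 217 and 75 bases before the start of Ltf and 55 bases before that of Cd177. Over windows of 300 bases (250 before and 50 after the start), 5 of the 6 markers held the motif and Camp did not. The motif is common, present in 44.1% of 27025 promoters and in 36.5% of the 6353 promoters of genes tested here.

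Within the set, cells with little granule transcript carried more of the transcripts of later neutrophils. Cells with much of it carried more of some early genes, but not of the primary granule genes Mpo (myeloperoxidase) and Elane (elastase). Cells were grouped by the percent of UMIs from Camp, Ltf and Ngp, from 2% to 3% up to 14% or more, within each pool. The genes used to sort the cells are part of the rule, so these values are a description, and the genes named here were chosen after their values were seen. Fcnb, a ficolin of early granulocytes, went from 6.48 to 376 CPM between the lowest and highest bin of WBM_2, from 9.76 to 412 CPM in WBM_1 and from 4.84 to 388 CPM in WBM_4. In WBM_3 it was 203 CPM in the lowest bin of 95 cells, 10.3 CPM in the next and 393 CPM in the highest, which held only 15 cells. Fcnb therefore stood high at the granule-rich end of each pool, with 1 thin bin of WBM_3 out of order. Chil3, a chitinase-like secreted protein, went from 581 to 7865 CPM in WBM_2, and Cebpe from 144 to 534 CPM. Lcn2, a partner of the rule genes in the same granule, went from 10480 to 23990 CPM in WBM_2. Retnlg, a resistin-like protein of mature neutrophils, went the other way, from 29960 to 826 CPM in WBM_2 and from 48140 to 998 CPM in WBM_4. Mmp8, neutrophil collagenase, was 2612 and 457 CPM at the lowest and highest bin of WBM_2, with its maximum of 3522 CPM in the second bin. Ccl6, a chemokine, was 424 and 12.3 CPM, and Cxcr2, the receptor that guides release from marrow, was 648 and 173 CPM.

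**Figure D1:**
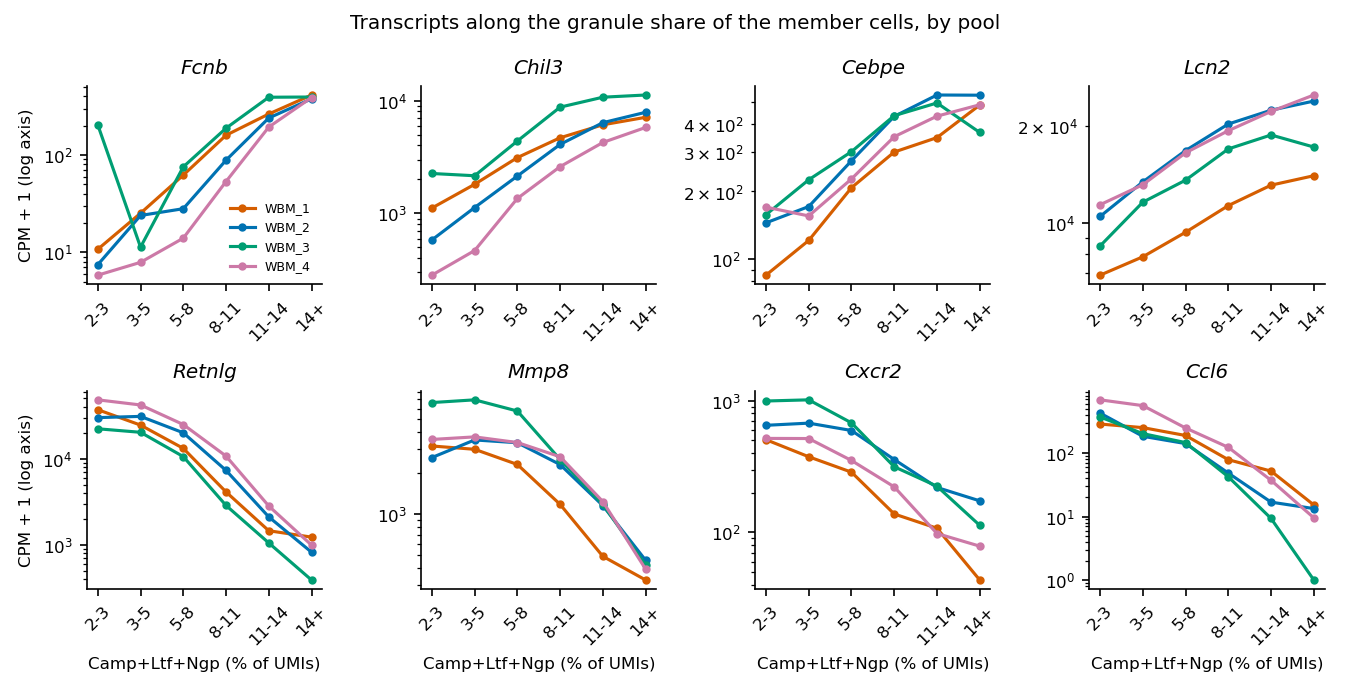
Level (CPM, log axis) of 8 genes against the percent of UMIs from Camp, Ltf and Ngp, with 1 line for each pool. Fcnb, Chil3, Cebpe and Lcn2 were higher and Retnlg, Mmp8, Cxcr2 and Ccl6 lower at the granule-rich end, as in WBM_2, where Chil3 ran from 581 to 7865 CPM and Retnlg from 29960 to 826 CPM.

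Across 1504 genes with at least 50 CPM at one end of the range in every pool, 253 were higher in cells at 11% or more than in cells at 2% to 5% in all 4 pools, and 720 were lower in all 4. Among the former, Orm1, an acute phase glycoprotein, had the largest median log2 difference over pools, 3.95, followed by Fcnb at 3.88. Lta4h, the hydrolase that makes leukotriene B4, reached 2.42, Ffar2, a receptor for short-chain fatty acids, 2.41, and Hvcn1, the proton channel that supports the oxidative burst, 1.88. Among the latter, Gm5483, a stefin, was lowest at -5.70, followed by Clec4d, a C-type lectin receptor, at -4.49 and Retnlg at -4.30. Srgn, the granule proteoglycan serglycin, was at -3.54, Dusp1, a phosphatase of MAP kinases, at -2.63 and Fpr1, a formyl peptide receptor, at -2.59. Median UMIs per cell moved along the same axis, from 3356 to 5645 in WBM_2 and from 4377 to 7605 in WBM_4, and their part in these differences was not tested. The edge of the rule fell inside this range rather than at a break. The 122 barcodes just under it (1.8% to 2% granule transcript) and the 109 just over it (2% to 2.2%) had 45320 and 42330 CPM of Retnlg, 8872 and 10050 CPM of Lcn2, 914 and 1154 CPM of Cd177, and 495 and 713 CPM of Chil3.

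Set beside their neighbours in the lineage, these cells were the ones with the most Ltf, Lcn2, Cd177, Ifitm6 and Ly6g transcript. The neighbours were 7416 granule-rich cells with at least 1 UMI of Mki67 or Top2a, and 5765 later neutrophils under 2% granule transcript that carried S100a8 and S100a9 at 2% or more and Csf3r, Cxcr2 or Il1b. Both were cut with genes of the rule, so no test is given. The other granule genes of the rule did not follow Ltf. Camp was lower here than in the cycling cells in all 18 samples, with medians of 46790 and 59390 CPM, and Ngp was higher in 9 of 18, with medians of 38320 and 36930 CPM. Over the 18 grouped samples Lcn2 ran from 9885 through a median of 16610 to 22130 CPM in these cells, against medians of 11250 CPM in the cycling and 4903 CPM in the later cells. Ifitm6 ran from 3140 through 4061 to 6330 CPM, against 1335 and 1840 CPM. Ly6g, the surface antigen that defines mouse neutrophils, ran from 763 through 901 to 1489 CPM, against 249.1 and 515 CPM. In each of the 18 samples Lcn2, Ifitm6, Ly6g, Cd177, Anxa1 and Cybb were higher than in both neighbours of the same sample. Anxa1, which encodes the anti-inflammatory protein annexin A1, had medians of 3738 CPM here, 2201 CPM in the cycling and 949 CPM in the later cells. Cybb, the catalytic subunit of the NADPH oxidase, had medians of 2359, 2009 and 416 CPM in the same order.

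The 4 genes of early or dividing cells given here were below the cycling cells in each of the 18 samples. For Hmgb2 and Stmn1, of the cell cycle list, this follows in part from the split by Mki67 and Top2a. Fcnb had medians of 163.5 CPM here, 943 CPM in the cycling and 15.2 CPM in the later cells, and Hmgb2, a chromatin protein, 1627, 5045 and 1559 CPM. Elane (neutrophil elastase) was lowest here by median, with medians of 47.8, 1055 and 142 CPM, and it was above the later cells in 1 of 18 samples. Stmn1, a tubulin regulator of dividing cells, had medians of 46.1, 748 and 73.5 CPM and was above the later cells in 5 of 18. Late genes stood between the neighbours at the median: Mmp8 had medians of 1895 CPM here, 199 CPM in the cycling and 2702 CPM in the later cells, and Mmp9, a gelatinase, 2238, 236 and 2969 CPM. Retnlg had medians of 9726, 827 and 47750 CPM, and Cxcr2 233, 57.3 and 991 CPM. Of these late genes Retnlg and Cxcr2 were above the cycling cells and below the later cells in all of the 18 samples. Cxcr2 helped to choose the later cells, so its contrast with them was partly fixed by that choice.

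**Figure D2:**
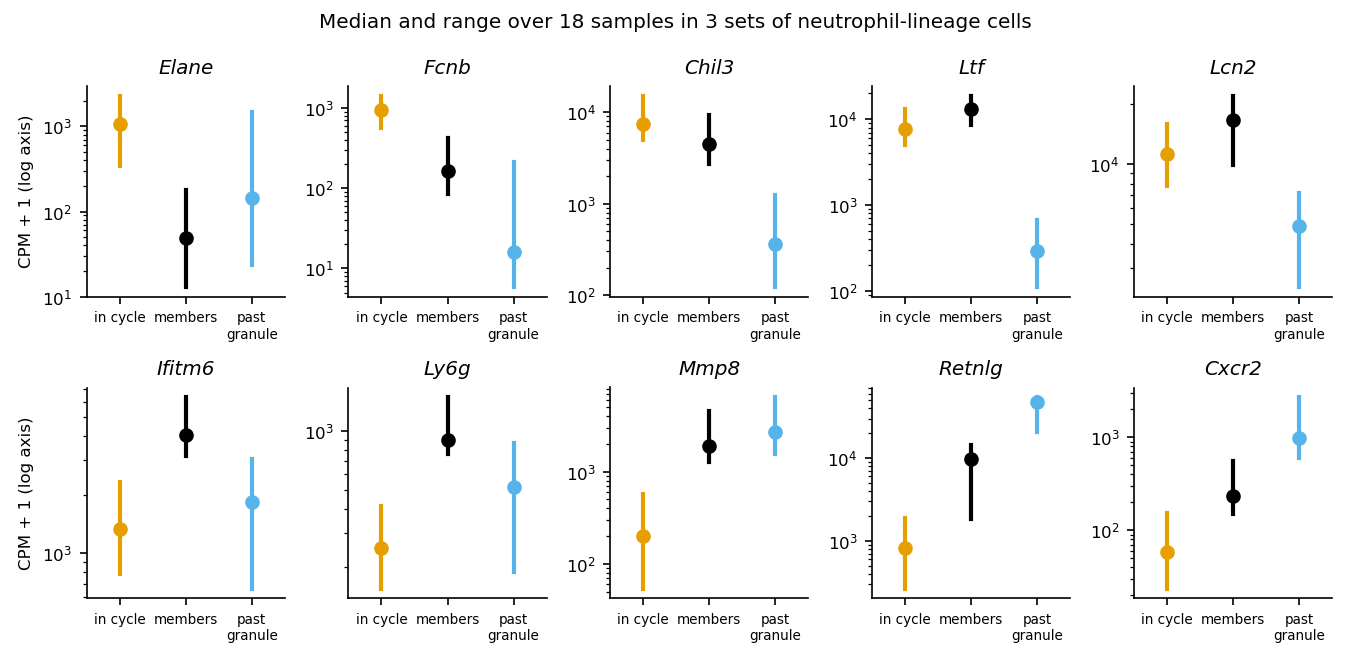
Level (CPM, log axis) of 10 genes in granule-rich cells in cycle, in the non-cycling granule-rich cells and in neutrophils past the granule stage. Points are medians and bars the lowest to highest of 18 samples, and Lcn2 peaked in the middle set at a median of 16610 CPM while Retnlg was highest in the later cells at 47750 CPM.

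The share of these cells among all kept cells of a sample varied as much within groups as between them. It was 22.9%, 12.7% and 11.4% in the WTY samples, 15.9%, 7.50% and 14% in HRY, and 16.7%, 21.5%, 28.0% and 29.97% in WTO. In HRO it was lowest at 13.1% and highest at 23.7%, with HRO.7 and HRO.9 near 13% and the other 4 samples between 21.9% and 23.7%. The chronic samples had 11.7% and 18.6%. The ranges of WTO and HRO overlapped, as did those of WTY, HRY and the chronic samples, and the highest WTY share came from WBM_1 while the other WTY samples were in WBM_3. The share depends on the other cells of a sample as well as on these.

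None of the 5 comparisons of shares passed an exact two-sided permutation test. HRO had 19.5% ± 4.96 (SD, n = 6) and WTO 24.1% ± 6.08 (SD, n = 4), a difference of -4.53 points (exact permutation p = 0.243, adjusted over the 5 comparisons 0.405, smallest p possible 0.00476). Within pools the WTO mean was also above the HRO mean, at 21.5% and 16.5% in WBM_2 and at 29.0% and 22.1% in WBM_4. HRO exceeded HRY by 7.07 points (exact permutation p = 0.119, adjusted 0.357, smallest possible 0.0119) and WTO exceeded WTY by 8.38 points (exact permutation p = 0.143, adjusted 0.357, smallest possible 0.0286). HRY was 3.21 points below WTY (exact permutation p = 0.6), where 3 samples against 3 cannot give a p under 0.1, and without WTY.3 the difference was 0.391 points. The chronic samples were 4.38 points below HRO (exact permutation p = 0.357, adjusted 0.446, smallest possible 0.0357). When each cell was thinned to 1000 UMIs before the rule was applied, which left out 1.32% to 27.9% of the cells of a grouped sample, the 5 differences kept their signs. They were then -6.28 points for HRO minus WTO, 5.47 for HRO minus HRY, 10.7 for WTO minus WTY, -1.04 for HRY minus WTY and -2.19 for chronic minus HRO. The share itself was higher after thinning in each grouped sample, as in WTO.3 at 27.4% against 16.7%. The ratio of these cells to the cycling granule-rich cells was 0.779 to 0.925 in HRO.7, HRO.8 and HRO.9 of WBM_2 and 0.303 in HRY.5, and at least 1.06 in the other grouped samples.

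**Figure D3:**
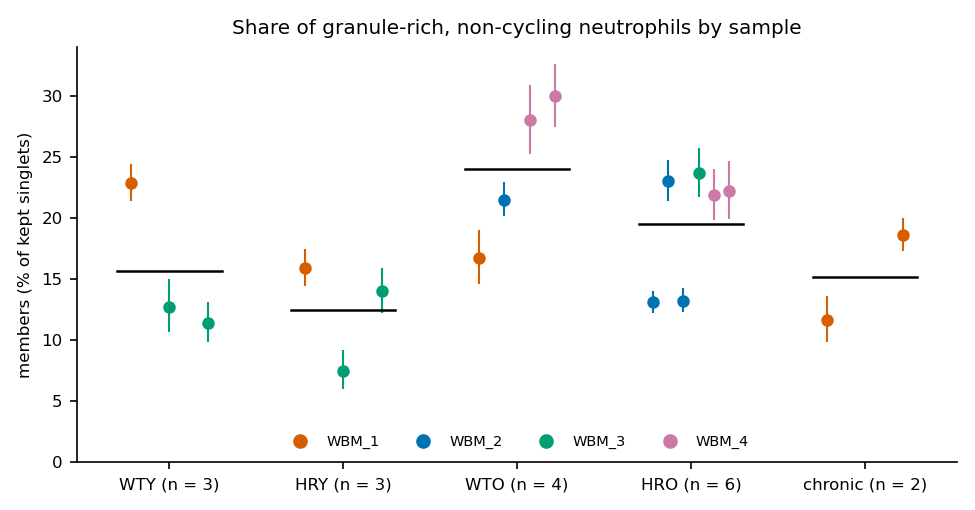
Percent of kept cells that were non-cycling granule-rich neutrophils in each hashtag sample, with 95% exact binomial intervals that cover counting error only. Horizontal lines are group means, colours are pools, and the groups overlap, with means of 19.5% in HRO and 24.1% in WTO.

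Expression was compared on UMIs summed over these cells in each sample, with edgeR's quasi-likelihood test and the pool as a term, at a Benjamini-Hochberg adjusted p under 0.05 over 8018 genes. The comparison of HRO with WTO gave the most calls: 140 genes passed (1.75% of those tested), 101 higher (1.26%) and 39 lower (0.486%). Interferon-responsive genes, class I antigen presentation genes, immediate early transcription factors and a cluster of stefins were higher in HRO, and the secreted matrix protein Thbs1 was lower, while at most 2 genes of any granule list passed. Of the called genes, 20 higher and 9 lower ones did not overlap between the 6 HRO and 4 WTO samples, against 1.97% of all tested genes. With only WBM_2 and WBM_4, the pools that held both groups, 52 genes passed, 47 of them among the 140. Without the pool term 1 gene passed, and without sample WTO.4, the only WTO sample of WBM_2, 24 passed, 19 of them among the 140. Without WTO.6 88 passed, and without HRO.9, the HRO sample with the lowest class I levels, 372 passed. DESeq2 called 137 genes, of which 103 were shared. With Ddx3y status as a term 140 genes passed, 94 of them shared.

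Some genes of antigen presentation were higher in HRO. Class I molecules display peptides on the cell surface, B2m is their light chain and Tap1 feeds them peptides. Of 20 tested genes in the list of interferon gamma and class I genes, 7 were higher (B2m, Gbp2, Gbp7, H2-D1, H2-K1, Igtp and Tap1) and none lower, with a median log2 fold of 1.64 against 0.0072 over all genes. H2-K1, a classical class I heavy chain, was at 272, 338, 177 and 162 CPM in the WTO samples and at 315 (lowest), 1107 (median) and 1631 CPM (highest) in HRO. HRO.7, HRO.8, HRO.10 and HRO.11 were above 1000 CPM, whereas HRO.9 lay within the WTO range and HRO.12 just above it. The log2 fold was 1.96 ± 0.36 (SE, adjusted p = 0.0052). H2-Q7, a non-classical class I gene, was at 12.6, 22.5, 12.7 and 8.89 CPM in WTO and at 14.9, 198 and 426 CPM in HRO. Again HRO.9 did not leave the WTO range, and the other 5 samples were above it. Its log2 fold was 3.76 ± 0.71 (adjusted p = 0.0059), and H2-Q6 (4.62 ± 0.87, adjusted p = 0.0058) and H2-Q4 (3.16 ± 0.58, adjusted p = 0.0043) rose as well. The H2-Q genes are near-identical copies, so reads may have been split between them. H2-D1 rose by a log2 fold of 0.99 ± 0.19 (adjusted p = 0.0076), B2m by 1.09 ± 0.24 (adjusted p = 0.022) and Tap1 by 1.72 ± 0.34 (adjusted p = 0.0094). Gbp2, an interferon-induced GTPase, had 10.5, 5.54, 4.23 and 0.936 CPM in WTO and 3.13, 24.98 and 215 CPM in HRO, where HRO.7 and HRO.8 alone were above 100 CPM. Its log2 fold was 4.04 ± 0.96 (adjusted p = 0.030), and Igtp, another such GTPase, had 2.56 ± 0.60 (adjusted p = 0.027). Without WTO.4 none of these 9 genes, the 3 H2-Q genes included, passed. Tap1 also lost its call without HRO.11, and Gbp2 without WTO.3, WTO.6 or HRO.11. Igtp also lost its call without WTO.3, WTO.6, HRO.10 or HRO.11, and B2m without WTO.3, WTO.5, WTO.6 or HRO.11. Over the alternatives other than those that left out 1 sample, the highest adjusted p of these 9 genes lay between 0.089 (H2-Q4) and 0.739 (B2m).

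Type I interferon genes were higher in HRO, and Ifit1, Oasl2 and Rtp4 were highest in HRO.10. Interferon alpha and beta induce them, and many carry interferon-stimulated response elements in their promoters. Of 23 tested genes of that list 12 were higher and none lower (Ifi27l2a, Ifih1, Ifit1, Irf7, Oas2, Oas3, Oasl1, Oasl2, Rtp4, Usp18, Xaf1 and Zbp1), with a median log2 fold of 1.74. Ifit1, which binds foreign RNA, had 8.37, 5.25, 7.24 and 0.468 CPM in WTO and 2.51, 57.6 and 214 CPM in HRO. HRO.12 lay inside the WTO range and the other 5 samples above it, on only 1 to 18 UMIs in a WTO sample. The log2 fold was 2.89 ± 0.55 (adjusted p = 0.0059). Oasl2, an oligoadenylate synthetase-like protein, had 14.7, 30.9, 9.05 and 2.34 CPM in WTO and 16.9, 136 and 273 CPM in HRO. Only HRO.12 fell in the WTO range, and the log2 fold was 2.65 ± 0.47 (adjusted p = 0.0037). Rtp4, a chaperone of receptor transport, had 16.7, 31.2, 7.24 and 2.81 CPM in WTO and 19.4, 85.4 and 170 CPM in HRO. Its log2 fold was 2.12 ± 0.29 (adjusted p = 0.00037), and this call alone among those of Rtp4, Ifit1, Oasl2 and Ifih1 was kept when any 1 sample was left out. Ifih1, a sensor of double-stranded RNA, had a log2 fold of 1.62 ± 0.27 (adjusted p = 0.0020). The other 3 lost their calls without WTO.4.

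The interferon-stimulated response element, spelled as 2 copies of GAAA (TTTC on the other strand) with any 2 bases between them, was searched for in the same 300-base windows. Among the genes called higher with a promoter entry, 14 of 74 held the element (18.9%), against 1 of 32 called lower (3.12%), 4.19% of the 6353 tested promoters and 3.99% of all 27025. Of the type I interferon list 11 of 18 promoters held it. The windows of Ifit1 and Oas3, both called higher, are shown as examples, the 250 bases before the RefSeq start in GRCm38.p6, at chr19:34640639-34640888 (plus strand) and chr5:120777660-120777909 (minus strand), with the matches in capitals.
Ifit1: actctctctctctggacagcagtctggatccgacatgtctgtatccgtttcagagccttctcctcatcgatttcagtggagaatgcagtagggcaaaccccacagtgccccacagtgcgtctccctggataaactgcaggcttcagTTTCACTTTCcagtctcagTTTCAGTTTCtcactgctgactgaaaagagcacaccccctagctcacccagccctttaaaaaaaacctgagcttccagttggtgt
Oas3: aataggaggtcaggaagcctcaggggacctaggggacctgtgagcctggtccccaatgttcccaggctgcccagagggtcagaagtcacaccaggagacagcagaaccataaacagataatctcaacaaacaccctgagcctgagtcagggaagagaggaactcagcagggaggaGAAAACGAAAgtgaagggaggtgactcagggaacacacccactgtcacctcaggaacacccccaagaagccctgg
The matches began 104 and 85 bases before the start of Ifit1 and 75 bases before that of Oas3. Oas3, an oligoadenylate synthetase shown here for its promoter and not by the rule for named genes, had 54.4, 117, 45.9 and 26.7 CPM in WTO and 53.2, 174 and 374 CPM in HRO. The groups overlapped, and the log2 fold was 0.91 ± 0.20 (adjusted p = 0.018), a call lost on leaving out any of 5 samples. A match is a description of these letters and not a measured binding site.

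Immediate early genes, which are transcribed within minutes of a stimulus, were higher in HRO in 10 of 17 tested cases (Btg2, Dusp1, Egr1, Fos, Fosb, Ier2, Jun, Jund, Klf2 and Klf6) and lower in none, with a median log2 fold of 0.82. Klf2, a zinc finger factor that restrains myeloid activation, had 64.9, 242, 383 and 344 CPM in WTO and 426, 737 and 815 CPM in HRO. All 6 HRO samples were above all 4 WTO samples, with HRO.10 the lowest of the 6. The log2 fold was 1.39 ± 0.14 (adjusted p = 1.3e-05), the smallest p of the comparison. Fosb, a subunit of the AP-1 factor, had 0, 13.7, 56.7 and 13.6 CPM in WTO and 30.1, 129 and 227 CPM in HRO. HRO.10 alone lay under the highest WTO sample, and the log2 fold was 2.42 ± 0.39 (adjusted p = 0.0019). Egr1 rose by a log2 fold of 2.37 ± 0.31 (adjusted p = 0.00019), Dusp1 by 1.88 ± 0.24 (adjusted p = 0.00017) and Jund by 1.27 ± 0.20 (adjusted p = 0.0018). Junb, at 0.82 ± 0.23, did not pass (adjusted p = 0.070). Leaving out any 1 sample kept the calls of Klf2, Egr1 and Dusp1, and Fosb and Jund lost theirs without WTO.4. These genes also differed between pools: their summed level in these cells was 712 to 953 CPM in the 5 samples of WBM_1 and 3089 to 6693 CPM in the 4 samples of WBM_4, whatever the group. Within WBM_4, Klf2 was 383 and 344 CPM in WTO against 783 and 732 CPM in HRO, and within WBM_2 it was 242 CPM against 733, 741 and 815 CPM.

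A minority of NF-kB target genes passed. Of 17 tested, 6 were higher (Bcl3, Ccrl2, Cxcl2, Nfkbia, Nfkbiz and Tnf) and none lower, with a median log2 fold of 0.59. Nfkbia, the inhibitor that NF-kB induces to shut itself off, had 117, 160, 130 and 133 CPM in WTO and 190, 218 and 286 CPM in HRO. The groups did not overlap, and the log2 fold was 0.67 ± 0.14 (adjusted p = 0.014). Cxcl2, a chemokine that recruits neutrophils, had 0, 2.63, 234 and 193 CPM in WTO and 15.0, 63.9 and 730 CPM in HRO. The pools set most of this range, since the 4 samples of WBM_4 were at 193 CPM or more and all other samples of both groups at 66.6 CPM or less. With the pool as a term the log2 fold was 2.16 ± 0.32 (adjusted p = 0.00092). Nfkbiz, a nuclear co-factor of NF-kB, rose by 1.15 ± 0.16 (adjusted p = 0.00064) and Ccrl2, a chemerin-binding receptor, by 2.80 ± 0.46 (adjusted p = 0.0028), on 0 UMIs in WTO.3, WTO.4 and HRO.10. Cxcl2, Nfkbiz and Ccrl2 kept their calls when any 1 sample was left out. Nfkbia lost its call without WTO.5, WTO.6 or HRO.12, and Bcl3 kept its call in only 4 of 10 left-out samples.

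Stefins, cytosolic inhibitors of cysteine proteases encoded in a cluster of near-identical copies on chromosome 16, were higher in HRO, with the highest values in WBM_4. Stfa2 had 0, 2.04, 11.5 and 7.02 CPM in WTO and 3.87, 41.8 and 237 CPM in HRO. HRO.11 and HRO.12 were above 200 CPM, and HRO.9 lay within the WTO range. The log2 fold was 4.45 ± 0.54 (adjusted p = 0.00015), and BC100530 (2.97 ± 0.49, adjusted p = 0.0020), Stfa2l1 (1.82 ± 0.33, adjusted p = 0.0043) and Gm5483 (2.02 ± 0.43, adjusted p = 0.016) rose too. Reads may be split between these copies. Gm5483 lost its call without WTO.4, WTO.5 or WTO.6, and the other 3 kept theirs when any 1 sample was left out. Stfa2l1 and Gm5483 were also among the genes that were most abundant in the cells with the least granule transcript. Of other called genes, Orm1 was higher and Srgn, Dusp1 and AC110211.1 were lower in cells with more granule transcript. The median granule percent of a sample's cells was 9.11% to 10.3% in WTO and 8.30% to 11.7% in HRO. Within WBM_2 it was 10.3% in WTO.4 and 11.6%, 11.4% and 11.7% in HRO. Within WBM_4 it was 9.11% and 9.89% in WTO and 9.86% and 10.7% in HRO. With the rule at 5% or more 131 genes passed, 117 of them among the 140. The part of the granule percent in the calls was not tested.

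Few granule genes differed between HRO and WTO. Secondary granule genes had 1 higher gene of 15 tested, Orm1, and none lower, with a median log2 fold of 0.14. Orm1 had 126, 122, 132 and 145 CPM in WTO and 171, 240 and 361 CPM in HRO. The groups did not overlap, the log2 fold was 0.89 ± 0.21 (adjusted p = 0.030), and the call was lost without WTO.4, WTO.5, WTO.6 or HRO.12. Lcn2 had 10220, 18960, 18160 and 19540 CPM in WTO and 18760, 21670 and 22130 CPM in HRO, and it is described with no test. Among 12 primary granule genes Srgn was higher (0.85 ± 0.17, adjusted p = 0.010), a call lost without WTO.6, and Hexa, a lysosomal hexosaminidase, lower (-0.46 ± 0.12, adjusted p = 0.047), a call lost in 9 of 10 left-out samples. None of 11 tertiary granule genes passed, and Mmp8 had a log2 fold of -0.49 ± 0.21 (adjusted p = 0.333). None of 14 neutrophil transcription factors passed, Cebpb (0.54 ± 0.16, adjusted p = 0.089) among them, and none of 20 cell cycle, 7 S100, 7 oxidative burst, 15 glycolysis, 11 egress, 8 iron or 8 DNA methylation genes. Tet2, a DNA demethylase of the last list, had a log2 fold of 0.33 ± 0.18 (adjusted p = 0.472). In the mature neutrophil list 3 of 16 genes were higher, the stefins Gm5483 and Stfa2l1 and the endotoxin co-receptor Cd14 (2.01 ± 0.51, adjusted p = 0.043), and Cd14 lost its call in 7 of 10 left-out samples. Of 10 acute phase genes Bcl3, Cd14 and Orm1 were higher and Il1rn, the interleukin 1 receptor antagonist, lower (-0.81 ± 0.18, adjusted p = 0.017), a call lost without WTO.4, WTO.5 or HRO.12. Of the 87 ribosomal protein genes tested, 12 were higher, a group noticed after the calls were made.

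**Figure D4:**
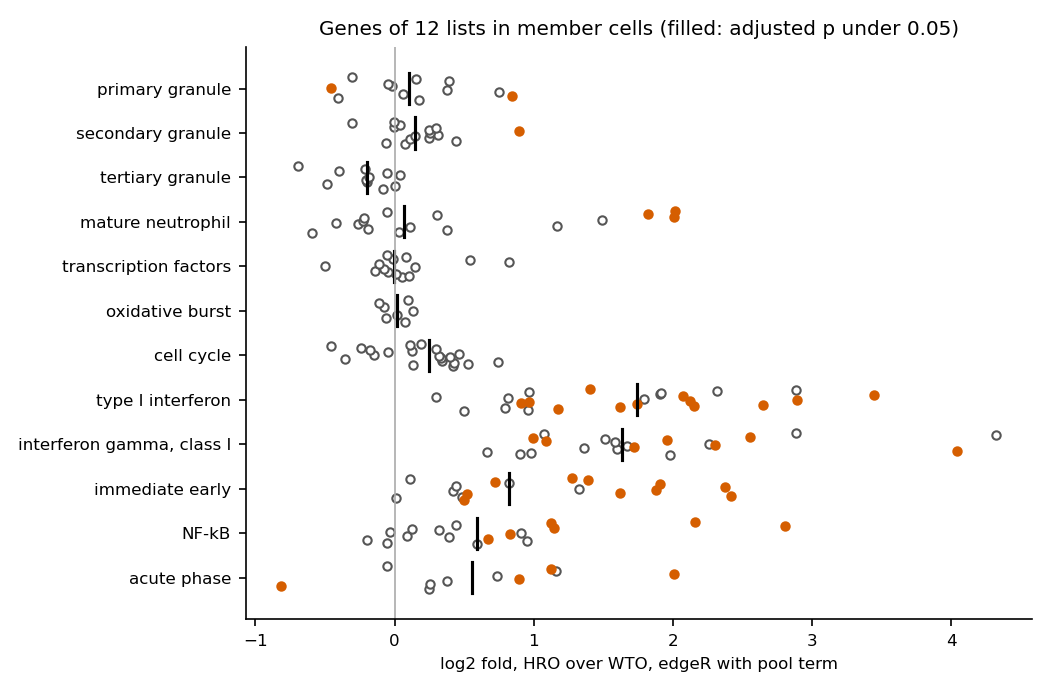
Log2 fold of HRO over WTO for each tested gene of 12 gene lists, with filled points at an adjusted p under 0.05 and a bar at each list's median. The type I interferon list (median 1.74) and the interferon gamma and class I list (median 1.64) lie to the right of 0, and the granule lists lie around 0.

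Genes lower in HRO did not form one of the lists. Thbs1, thrombospondin 1, an adhesive matrix glycoprotein, had 56.5, 71.2, 294 and 283 CPM in WTO and 7.43, 18.5 and 138 CPM in HRO. The groups overlapped only through HRO.12, and within WBM_4 both HRO samples were below both WTO samples. The log2 fold was -1.96 ± 0.34 (adjusted p = 0.0031). The non-coding RNA 2310001H17Rik had 237, 154, 130 and 151 CPM in WTO and 56.2, 88.9 and 120 CPM in HRO, without overlap, at a log2 fold of -0.83 ± 0.14 (adjusted p = 0.0022). Ppp1r42 also separated the groups, narrowly, at 42.6 CPM or more in WTO and 42.5 CPM or less in HRO (log2 fold -0.78 ± 0.15, adjusted p = 0.0059). Nrp1, a co-receptor for semaphorins and vascular growth factor, fell by 1.13 on the log2 scale (adjusted p = 0.0023) and Rap2a, a small GTPase, by 0.82 (adjusted p = 0.0094). AL590144.2 fell by 1.21 (adjusted p = 0.00037), AC110211.1 by 1.10 (adjusted p = 0.0020), Gm34084 by 0.78 (adjusted p = 0.021) and Dmwd by 1.04 (adjusted p = 0.043), and Dmwd lost its call in 8 of 10 left-out samples. Without WTO.4 none of the genes in this paragraph passed.

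**Figure D5:**
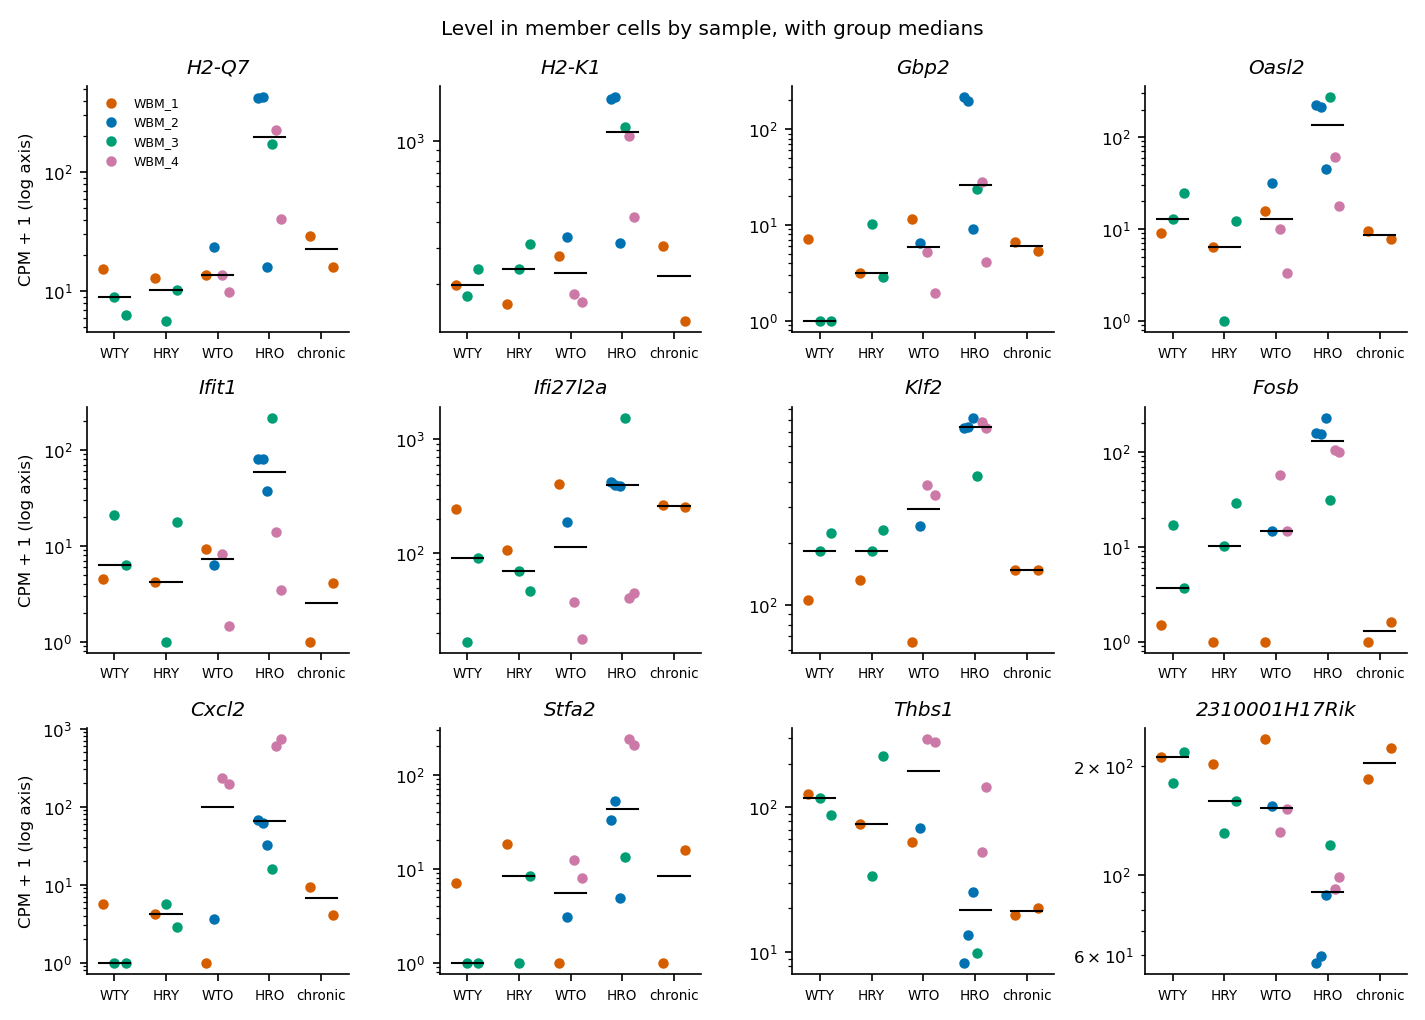
Level (CPM plus 1, log axis) of 12 genes in these cells in each hashtag sample, by group, with a line at the group median and colours for pools. Klf2 and 2310001H17Rik separate HRO from WTO, while H2-Q7 and Oasl2 are high in only some HRO samples.

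Markers of other cell types that could sit in the same droplets were compared alongside. None of 8 monocyte, 2 macrophage, 4 B cell, 3 T and NK cell, 7 erythroid, 3 progenitor and 3 basophil or mast cell genes tested passed in HRO over WTO. Of genes in none of these lists, noticed after the calls, H2-DMb1, a class II gene, was higher (log2 fold 1.39 ± 0.35, adjusted p = 0.039). Apoe, a gene of macrophages, was lower (-1.56 ± 0.39, adjusted p = 0.039). The summed monocyte level (8 genes, none at 0 in most samples, Csf1r excluded by the rule) was 27.1 to 190.5 CPM in WTO and 22.5 to 107 CPM in HRO. The macrophage level was 16.4 to 19.6 CPM in WTO and 11.5 to 22.9 CPM in HRO. These ranges were not adjusted for pool, and the highest WTO monocyte level was that of WTO.3 in WBM_1, a pool without HRO samples. With the pool as a term, all 8 monocyte genes had a positive log2 fold in HRO over WTO (median 0.27). So did all 3 T and NK cell genes (median 0.85), against 1 of 2 macrophage and 1 of 4 B cell genes. Within WBM_2 the monocyte level was higher in each HRO sample than in WTO.4, and within WBM_4 the groups overlapped. The part of such RNA in the calls was not tested.

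HRO was also compared with HRY, with the same HRO samples in use. Interferon genes led the difference: 33 of 8018 genes passed (0.412%), 30 of them higher in HRO (0.374%) and 3 lower (0.0374%). Of the type I interferon list, 10 of 23 tested genes were higher and none lower, with a median log2 fold of 2.997 against -0.022 over all genes. Of the interferon gamma and class I list H2-D1 and H2-K1 were higher, 2 of 20, with a median of 1.62. None of the tested marker genes of other cell types listed above passed. Cd74, the invariant chain of class II molecules in B and dendritic cells, is in none of those lists and was noticed after the calls: it was at 39.8, 9.28 and 1.85 CPM in HRY and 6.89 (lowest), 27.1 (median) and 47.9 CPM (highest) in HRO, with overlap between the groups (adjusted p = 0.042). Its part in the other calls was not tested. Ifi27l2a, a small interferon-induced protein, had 106, 69.6 and 46.2 CPM in HRY and 39.5, 394 and 1527 CPM in HRO. The groups overlapped through HRO.11 and HRO.12, both of WBM_4, a pool that held no HRY sample. The log2 fold with pool as a term was 4.26 ± 0.44 (adjusted p = 2.5e-05). Oasl2 had 5.37, 0 and 11.1 CPM in HRY, below all HRO samples (log2 fold 4.79 ± 0.85, adjusted p = 0.0088), and Rtp4 had 7.52, 9.28 and 9.23 CPM, also below all HRO samples (3.94 ± 0.53, adjusted p = 0.00060). Ifit1 had 3.22, 0 and 16.6 CPM (4.20 ± 0.74, adjusted p = 0.0088). Slfn5, a member of the interferon-induced Schlafen family, had 2, 0 and 3 UMIs in HRY, so the size of its log2 fold of 5.05 ± 0.61 (adjusted p = 0.00014) is poorly fixed. Thbs1 was lower here as well, with 75.2, 32.5 and 223 CPM in HRY (-3.25 ± 0.66, adjusted p = 0.027), and so was Rragc, a GTPase that signals amino acids to mTORC1 (-1.13 ± 0.25, adjusted p = 0.047), a call lost in 8 of 9 left-out samples. Of the 30 higher genes 18 were also called higher in HRO over WTO, a comparison with the same HRO samples. Without HRO.10, the only HRO sample in a pool with HRY samples, 0 genes passed, without HRY.5 9 passed, without HRY.4 18 passed, without HRY.6 21 passed, and without HRO.9 76 passed. Without the pool term 1 passed. Ddx3y was above 10 CPM in HRY.4, HRY.5 and HRY.6, but in HRO.9 alone of the HRO samples. With Ddx3y status as a term fewer genes passed than in the main fit, as given below.

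The remaining comparisons gave no calls. In HRY over WTY 0 of 8018 genes passed in edgeR (0%) and in DESeq2, and 391 had an unadjusted p under 0.05. In WTO over WTY 0 passed in both tools (0%), with 368 at an unadjusted p under 0.05. Among the chronic samples against HRO 0 passed in both tools (0%), with 375 at an unadjusted p under 0.05, and there WBM_1 held both chronic samples and no HRO sample, so that the pool was separated from the group only through the other groups. The levels in HRO.5 and HRO.6 are given as values: H2-K1 was at 304 and 131 CPM, H2-Q7 at 28.2 and 14.9 CPM, Klf2 at 147 CPM in each, Fosb at 0 and 0.62 CPM, Thbs1 at 16.9 and 19.2 CPM and Tet2 at 22.5 and 14.9 CPM. H2-K1 and Klf2 were below all 6 HRO samples, all from other pools. In the other samples of WBM_1, WTY.3, WTO.3 and HRY.4, H2-K1 was at 197, 272 and 158 CPM and Klf2 at 105, 64.9 and 131 CPM, so both chronic samples were the highest of that pool for Klf2, and HRO.5 was the highest for H2-K1. Thbs1 was at 123, 56.5 and 75.2 CPM in those samples, above both chronic samples.

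The HRO over WTO difference was then set against the same difference in the neighbouring stages, a test chosen after the data were seen. Each stage had its own calls: 92 of 8971 genes (1.03%) in the cycling cells, 80 higher (0.892%) and 12 lower (0.134%), and 88 of 5503 (1.6%) in the later cells, 72 higher (1.31%) and 16 lower (0.291%). The log2 fold in the non-cycling granule-rich cells differed from that in the cycling cells for 9 of 9168 genes (0.0982%), being larger for 2 (0.0218%) and smaller for 7 (0.0764%). Ccr1, a chemokine receptor, had the smallest p, with a fold lower by 1.24 than in the cycling cells (adjusted p = 6.2e-05). Ifitm3, a restriction factor induced by interferon, was lower by 0.58 (adjusted p = 0.0035), and 2310001H17Rik by 0.67 (adjusted p = 0.011). Against the later cells the fold differed for 3 of 6633 genes (0.0452%), all smaller here: S100a4, a calcium-binding protein (-2.99, adjusted p = 0.0072), Ccl5, a chemokine (-3.03, adjusted p = 0.019), and Pycard, the inflammasome adaptor (-1.24, adjusted p = 0.042). Ccl5 is a gene of the T and NK cell list, and over the later cells of the grouped samples it had a median of 19.2 and a maximum of 553 CPM. The part of other cells' RNA in its difference was not tested. Of the genes named above for HRO over WTO, 2310001H17Rik was the only one whose fold passed this test against either stage. The counts moved with single samples. Against the cycling cells 42 genes passed without HRO.9, 20 without HRO.12, 18 without WTO.6, 4 without HRO.7 and 2 without WTO.4. Against the later cells 20 passed without HRO.9, 10 without HRO.7, 7 without HRO.11, 6 without WTO.5, 5 without HRO.8 and 1 without WTO.6.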

How the data were processed

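The authors deposited UMI counts per gene and hashtag for each barcode of 7 libraries, made with Cell Ranger 3.0.0 (WBM_1) or 3.1.0 (the others), per the file headers, and mm10, bcl2fastq and Seurat are named in the submitters' processing notes. Libraries were 10x 3′ v3, per the labels' protocols. From these counts, barcodes with at least 300 genes and under 10% mitochondrial UMIs were kept, and hashtags were assigned with HTODemux (Seurat 5.3.0, positive quantile 0.99). Hashtag doublets were left out of tests, and no doublet caller on expression was run. Counts were summed per sample with at least 20 cells and fitted in edgeR 4.0.16 (TMM, filterByExpr, group and pool as terms, 18 samples, Benjamini-Hochberg), after tests on simulated data. Log2 folds are edgeR's and SEs are the fold over the root of F. DESeq2 1.42.0, other thresholds and left-out samples were alternatives. Shares were compared by exact permutation (scipy 1.17.1). The text names, for HRO over WTO, the 10 largest rises and 10 largest falls among called genes with at least 20 CPM, for other comparisons 5 and 5, and up to 4 genes per list by p. The cells, lists and rules were chosen with earlier results of these data known. WTO and WTY samples of the same hashtag number deviated together (correlations 0.494, 0.285 and 0.113 over 8021 genes), as a hint from the data only, since WTO.4 and WTY.5 reached 0.301 and WTO.3 and WTY.3 share a pool. The hashtag number fitted as a replicate block, without WTO.6 and without a pool term, gave 0 calls, as did the main fit. Intervals cover counting error only.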

Additional observations from a re-analysis of the deposited data

Results flagged for a closer look

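Among 104 groups of 4 or 6 samples examined for a sample far from the rest, 12 were flagged, and chance flags about 1 in 20. In HRO most of these concerned HRO.10, the only HRO sample of WBM_3: its cells had the highest Ifit1 (214.1 CPM), Slfn5 (138.9 CPM), Ifi27l2a (1527 CPM), Il1rn (85.82 CPM) and Hexa (123.9 CPM) and the lowest Klf2 (425.6 CPM) and Jund (189.3 CPM). HRO.12 had the highest Thbs1 of HRO (137.8 CPM). In WTO the sample apart was WTO.3, the only WTO sample of WBM_1, with the highest B2m (1300 CPM), AL590144.2 (81.65 CPM) and Slfn5 (14.65 CPM) and the lowest Rap2a (29.31 CPM).

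HR.7, which the labels put in no group, had 162.6 CPM of H2-Q7 and 923.7 CPM of H2-K1 in its 56 cells, above every WTO, WTY and HRY sample. The same cells had 857 CPM of Cd74, against at most 185.9 CPM in a grouped sample, and a summed level of 8 monocyte genes of 214.3 CPM, against 67.3 to 107.1 CPM in the grouped samples of WBM_3. The part of other cells' RNA in these values was not tested.

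The HRO over WTO log2 fold differed from that in cycling granule-rich cells, by a test of the difference itself, for Ccr1 (-1.245), Fdps (-0.9628), Creg1 (-0.7682), Gadd45g (-0.7038), 2310001H17Rik (-0.6738), Cxcr2 (-0.59), Ifitm3 (-0.5842), Banp (1.115) and Itgb7 (2.471). It differed from that in later neutrophils for Ccl5 (-3.026), S100a4 (-2.993) and Pycard (-1.24).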

How the results depend on the processing

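None of the 55 named folds followed here changed sign. Of 55 named folds, 55 kept their side of the threshold with RLE size factors, 40 with Ddx3y as a term, 34 without WBM_1 and 6 without the pool term, as did 46 of the 54 with a DESeq2 value and 26 of the 48 run with only WBM_2 and WBM_4. Calls in HRO over WTO numbered 1 without the pool term, 382 without the filter on low counts, 52 with only WBM_2 and WBM_4, 63 without WBM_1, and 24 to 372 when 1 sample was left out (88 without WTO.6). In HRO over HRY there were 1 without the pool term, 141 without the filter, 10 with Ddx3y as a term, 11 without WBM_1, and 0 to 76 when 1 sample was left out (18 without HRY.4, 9 without HRY.5, 21 without HRY.6). In HRY over WTY, HTODemux on counts normalised within each cell gave 2, no filter gave 24, and leaving out 1 sample gave 0 to 0. In WTO over WTY the same settings gave 2, 25 and 0 to 4, and without WBM_1 4. In chronic over HRO there were 3 without the pool term, 48 without the filter, 1 with the rule at 5% and 0 to 8 with 1 sample left out. Differences from the cycling cells numbered 42 without the filter and 2 to 42 with 1 sample left out (18 without WTO.6), and those from the later cells 1 without the pool term, 32 without the filter, 11 without HRO.7 and HRO.8, and 1 to 20 with 1 sample left out (7 without HRO.11). Left-out shares ranged from -6.97 to -2.55 points (HRO minus WTO), 4.59 to 8.78 (HRO minus HRY), 6.25 to 11.98 (WTO minus WTY), -7.86 to -0.891 (chronic minus HRO) and -5.34 to 0.391 (HRY minus WTY), the last reversed without WTY.3 at 0.391. For HRY and WTY, same-numbered samples correlated at -0.443 and 0.244. These values were not adjusted for pool, and HRY.4 and WTY.3, both of WBM_1, reached 0.696. They therefore cannot tell whether the numbers pair the samples. The hashtag number as a replicate block was fitted on HRY.4, HRY.5, WTY.4 and WTY.5 alone, without a pool term, and gave 25 calls. HRY.4 was in WBM_1 and the others were in WBM_3, so block and pool were mixed in that fit. Its count therefore does not compare with that of the full fit. The cause of these moves was not tested. Alternatives with HRO.7 and HRO.8 summed, without WBM_1, and all those for the stage differences were chosen after seeing the data.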

Other observations

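Cd3d, which encodes a chain of the T cell receptor complex, was above 100 CPM in these neutrophils in 7 of 18 grouped samples and under 30 CPM in the other 11. The 7 were WTY.3 (341 CPM), WTO.3 (438 CPM), HRO.6 (140 CPM), WTY.5 (123 CPM), HRY.5 (107 CPM), HRY.6 (196 CPM) and HRO.12 (425 CPM), so that samples of 1 pool fell on both sides. Cd3e, Cd3g and Trac stayed at 9.3 CPM or less in the same samples. These are values chosen after they were seen, with no test.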
